A study of Mus musculus with 9 samples.

Results

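The matrix metalloproteinases (MMPs), the ADAM and ADAMTS metalloproteinases, the ADAMTS-like proteins (ADAMTSL) and the tissue inhibitors of metalloproteinases (TIMPs) were followed in whole mouse lung by RNA sequencing. Members were taken by gene symbol alone, as every row of the deposited gene table whose name began with Mmp, Timp or Adam and a digit, or with Adamts and a digit or l. This gave 72 of 32671 genes, of which 20 were MMPs, 4 TIMPs, 23 ADAMs, 19 ADAMTS genes and 5 ADAMTSL genes. The remaining row, Mmp24os1, is an opposite-strand gene beside Mmp24 and encodes no metalloproteinase of the group. Of the 72 members, 65 passed the count filter and were tested, and 7 (Mmp7, Mmp20, Adam18, Adam21, Adam30, Adam6b and Adamts18) did not.

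The study asked how an inhaled nanoparticle aimed at the STING pathway of macrophages changed a mouse model of pulmonary fibrosis. All 9 libraries came from lungs of C57BL/6 mice labelled WT and taken at day 21, with 3 libraries per group. The control group had received saline. The bleomycin group had received bleomycin, a drug that injures the lung and leads to scarring. The third group, here called LNP, had received bleomycin too and was treated with mCas9/gSting@DOPS lipid nanoparticles, so that it differed from the control group in both bleomycin and nanoparticle. A group given bleomycin with nanoparticles lacking this cargo was not analysed here, and the labels give no ages. The labels do not state that the 3 libraries of a group came from 3 separate animals, and the p-values measure only the spread between these libraries.

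MMPs are zinc proteases that cut collagens, gelatin, elastin and other matrix proteins, and most are made as inactive precursors. TIMPs bind the active site of MMPs and, in the case of TIMP3, of several ADAMs and ADAMTS enzymes. ADAMs are membrane-bound and release the outer parts of growth factors, cytokines and receptors, whereas ADAMTS enzymes are secreted and process procollagens and large proteoglycans. In fibrotic lung the balance between these proteases and their inhibitors is known to bear on how much matrix is laid down and removed.

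Between 56047830 and 69404903 reads were assigned to genes in each library. Levels within a gene are given as CPM, read counts scaled to library size by the TMM method, and levels between genes as the deposited FPKM, which is per length of the gene model. LNP replicate 3 stood apart from all other libraries. The sum of 11 skeletal muscle markers was 9642 CPM there and at most 59.3 CPM elsewhere, and the sum of 11 squamous epithelium markers was 1911 CPM against at most 42.2 CPM. Its sum of 7 lung epithelium markers, 13650 CPM, was below LNP replicates 1 and 2 (32820 and 25330 CPM) and close to the bleomycin libraries (16460 to 18210 CPM); in the controls it was 44180 to 56540 CPM. No gene of the lung epithelium, fibroblast, neutrophil, macrophage or B and T cell marker lists used beside the results was at 0 in all libraries of a group. Counts of members called in the LNP comparisons are given with and without this library. Members called only without it are named with those counts, and values without it are given for some of them, not all. The transcript of the targeted gene, Sting1, stood at 18.4, 23.9 and 20.9 CPM in the controls, at 53.8, 41.5 and 40.5 CPM after bleomycin and at 51.8, 62.0 and 44.3 CPM in the LNP group; an RNA count does not measure editing of the gene. In whole-lung RNA, fewer cells of a type and less RNA per cell cannot be told apart.

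Against controls, bleomycin lungs held more RNA of 8 MMPs, among them Mmp14, Mmp2 and Mmp19, of Timp1 and Timp3 and of several ADAM and ADAMTS enzymes, and less RNA of Mmp15, Mmp28, Adam28, Adamts8 and several ADAMTSL genes. By edgeR's quasi-likelihood test with Benjamini-Hochberg adjustment over all 20794 genes tested (adjusted p under 0.05, no minimum fold), 22 of the 65 members were higher, beside 15.2% of all genes, and 14 were lower, beside 18.5% of all genes. In either direction, 55.4% of the tested members were called (33.8% higher and 21.5% lower), beside 33.7% of all genes. The 3 bleomycin libraries all lay above the 3 controls for 30 members (25.9% of all genes) and all below for 19 (29.6% of all genes). The median log2 fold change was 0.42 over the members and -0.05 over all genes. By family, 8 of 18 tested MMPs, 2 of 4 TIMPs, 6 of 19 ADAMs and 6 of 18 ADAMTS genes rose, and 2 MMPs, 5 ADAMs, 4 ADAMTS genes and 3 of 5 ADAMTSL genes fell. These counts were 28 higher and 16 lower when LNP replicate 3, whose spread counts in the pooled fit, was left out, beside 20.5% and 22.1% of all genes in that fit. The 6 further members higher were Mmp12, Mmp25, Mmp3, Adam11, Adamts3 and Adamts9, and the 2 further members lower were Adamtsl2 and Adamtsl3. Members lower numbered 9 without control replicate 1, control replicate 3 or bleomycin replicate 3 and 8 without bleomycin replicate 2, all of them among the 14. Over all genes 2770 of 21499, 2816 of 21440, 3177 of 21542 and 2412 of 21495 were lower in these fits, in the same order.

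**Figure D1:**
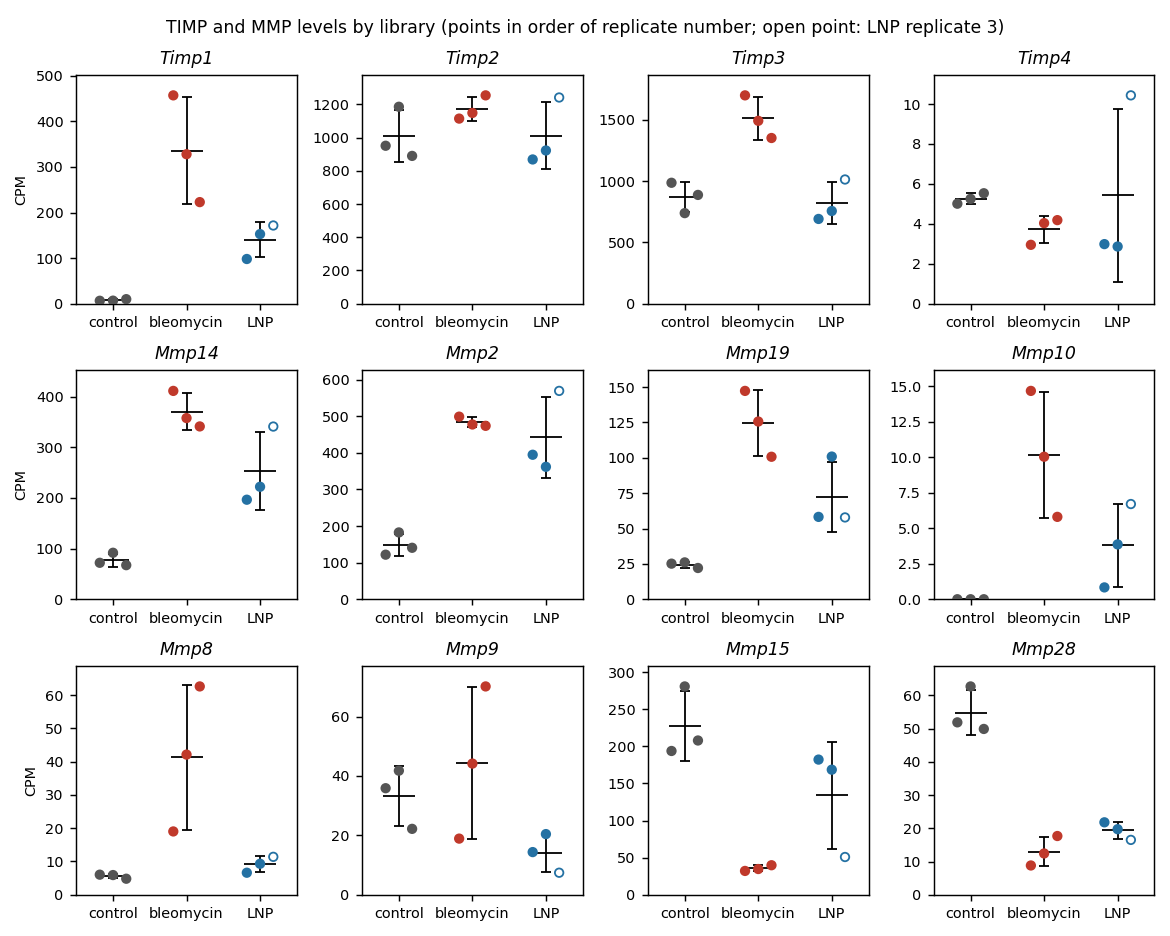
Levels of the 4 TIMPs and 8 MMPs in each of the 9 libraries, in TMM-scaled CPM on a linear axis from 0. Points are libraries in order of replicate number, the bar and whiskers are the mean and SD of 3 libraries, and the open point is LNP replicate 3. Timp1 lay between 6.43 and 9.94 CPM in the controls and between 223 and 457 CPM after bleomycin, and Mmp15 fell in the bleomycin libraries to 32.1 to 39.8 CPM.

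Among the inhibitors, Timp1, a secreted TIMP that is induced in many injured tissues, changed most. It stood at 6.43, 6.69 and 9.94 CPM in controls, at 457, 328 and 223 CPM after bleomycin and at 98.0, 153 and 172 CPM in the LNP group. The 3 groups did not overlap, and every LNP library lay between the controls and the bleomycin libraries. The log2 fold change was 5.45 ± 0.35 (SE) for bleomycin against control (adjusted p = 3.98e-05), 4.19 ± 0.33 for LNP against control (adjusted p = 0.000241) and -1.25 ± 0.30 for LNP against bleomycin (adjusted p = 0.0393). The last of these was called in 2 of 9 fits that each left out 1 library, those without bleomycin replicate 3 and without LNP replicate 3, and not when any control, bleomycin replicate 1 or 2, or LNP replicate 1 or 2 was left out.

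Timp3, which is held in the matrix and has the widest range of targets among TIMPs, stood at 986, 739 and 887 CPM in controls, 1699, 1492 and 1351 CPM after bleomycin and 691, 756 and 1013 CPM in the LNP group. All bleomycin libraries were above all others, while the control and LNP libraries overlapped. It rose by 0.80 ± 0.18 on the log2 scale after bleomycin (adjusted p = 0.00928) and fell by 0.88 ± 0.18 from bleomycin to LNP (adjusted p = 0.0255). This fall was lost without bleomycin replicate 1 or 2 or without LNP replicate 1 or 2. For LNP against control the log2 fold change of Timp3 was -0.09 ± 0.18 (adjusted p = 0.822).

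Timp2, the partner of MMP14 in the activation of MMP2, was the most abundant TIMP in controls and was not called in any comparison. Its values were 951, 1186 and 890 CPM in controls, 1115, 1149 and 1255 CPM after bleomycin and 869, 923 and 1242 CPM in the LNP group, and the groups overlapped. The log2 fold change was 0.22 after bleomycin (95% interval -0.17 to 0.61) and -0.21 for LNP against bleomycin (95% interval -0.60 to 0.18). Timp4, the least abundant, stood at 5.01, 5.25 and 5.53 CPM in controls, 2.95, 4.04 and 4.19 CPM after bleomycin and 2.98, 2.86 and 10.4 CPM in the LNP group. LNP replicate 3, the library with the skeletal muscle markers, was the highest of all 9, and the part of those cells in the Timp4 value was not tested. The log2 fold change of Timp4 for LNP against control was 0.04 ± 0.45 with this library (adjusted p = 0.970) and -0.81 without it (adjusted p = 0.0493). Timp1, Timp3 and Timp4 lie inside Syn1, Syn3 and Syn2 on the opposite strand in the deposited table, and Timp2 overlaps Cep295nl on the same strand. The libraries were strand-specific by their preparation, and whether counting used the strand was not given in the sources used here.

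As a share of the summed TIMP FPKM, Timp1 made up 2.04%, 1.98% and 3.38% in controls, 52.1%, 44.8% and 35.2% after bleomycin and 27.5%, 35.6% and 31.5% in the LNP group. In rank of mean FPKM among the members it moved from 21st in controls to 1st after bleomycin and 2nd in the LNP group. The summed TIMP level was 326 ± 10.6 FPKM in controls, 736 ± 85.2 after bleomycin and 475 ± 95.9 in the LNP group (SD, n = 3). The summed MMP level was 171 ± 19.8, 318 ± 5.27 and 294 ± 14.4 FPKM in the same order. Hence the ratio of summed TIMP to summed MMP FPKM was 1.92 ± 0.18 in controls, 2.32 ± 0.31 after bleomycin and 1.60 ± 0.25 in the LNP group. Taken over CPM, which weights long transcripts more, the ratio was 2.76 ± 0.39, 2.33 ± 0.11 and 1.70 ± 0.29, so the order of the control and bleomycin groups depended on the unit, and the LNP group was lowest by mean in both.

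**Figure D2:**
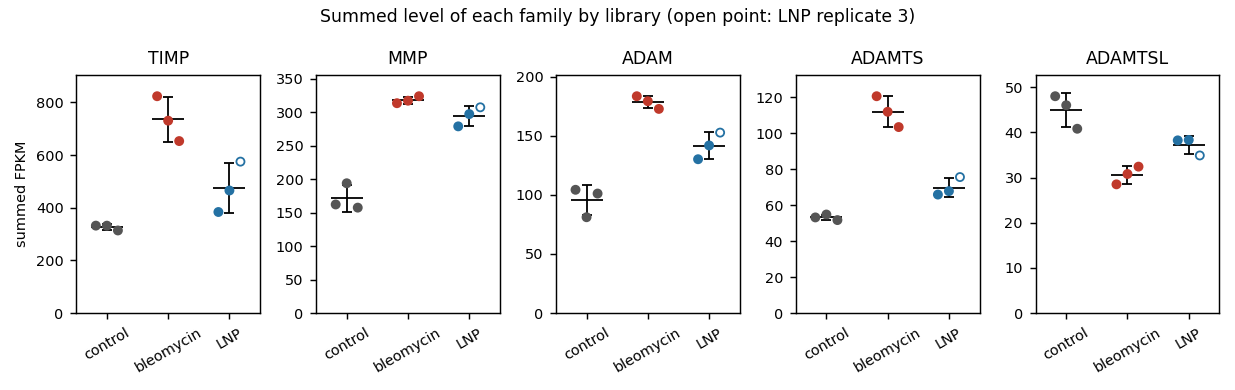
Summed FPKM of each family in each library, on linear axes from 0; points are libraries in replicate order, bars and whiskers are the mean and SD of 3 libraries, and the open point is LNP replicate 3. The TIMP, MMP, ADAM and ADAMTS sums were higher in every bleomycin library than in every control, and the ADAMTSL sum was lower in every one.

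Of the collagen-cutting and gelatin-cutting MMPs, Mmp14 and Mmp2 carried the largest part of the MMP signal after bleomycin. Mmp14, a membrane-anchored collagenase that activates MMP2, stood at 72.0, 91.8 and 67.3 CPM in controls, 411, 358 and 341 CPM after bleomycin and 197, 222 and 341 CPM in the LNP group. Mmp2, a gelatinase made largely by fibroblasts, stood at 122, 183 and 141 CPM, at 499, 478 and 474 CPM and at 395, 362 and 570 CPM. For both genes the controls were below all other libraries, and in the LNP group LNP replicate 3 was the highest. After bleomycin Mmp14 rose by 2.27 ± 0.22 (adjusted p = 0.000203) and Mmp2 by 1.71 ± 0.21 (adjusted p = 0.000464) on the log2 scale. Mmp2 held 20.9% to 25.1% of the summed MMP FPKM in controls and 39.4% to 39.7% after bleomycin.

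From bleomycin to LNP neither gene was called, with log2 fold changes of -0.55 ± 0.21 for Mmp14 (adjusted p = 0.147) and -0.13 ± 0.20 for Mmp2 (adjusted p = 0.742). Without LNP replicate 3 the Mmp14 value was -0.82 (adjusted p = 0.00471) and was called, and the Mmp2 value was -0.35 (adjusted p = 0.145). Mmp14 and Mmp2 were still above controls in the LNP group, by 1.72 ± 0.22 (adjusted p = 0.00243) and 1.58 ± 0.20 (adjusted p = 0.00262). Of 10 fibroblast markers 3 rose, Col1a1 and Col1a2 among them, and 2 fell after bleomycin. The sum of all 10 includes these collagen genes, so it cannot give the number of fibroblasts alone. It was 2716 to 3034 CPM in controls, 6131 to 6997 CPM after bleomycin and 3706, 4010 and 5922 CPM in the LNP group. The part of this sum in the Mmp14 and Mmp2 differences was not tested.

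Mmp19, a secreted MMP of basement membrane proteins, stood at 25.2, 26.1 and 22.1 CPM in controls, 147, 126 and 101 CPM after bleomycin and 58.2, 101 and 57.8 CPM in the LNP group. All controls were below all other libraries, and LNP replicate 2 was level with the lowest bleomycin library. It rose after bleomycin by 2.35 ± 0.24 (adjusted p = 0.000234) and was also above controls in the LNP group (1.57 ± 0.23, adjusted p = 0.00444). Its difference from bleomycin to LNP, -0.78 ± 0.23, was not called (adjusted p = 0.0735). Mmp23, a small membrane-linked MMP, stood at 13.6 to 17.9 CPM in controls and 27.3 to 29.8 CPM after bleomycin and rose by 0.83 ± 0.19 (adjusted p = 0.00855). Mmp24, another membrane type, was nearly absent from controls at 0, 0.0908 and 0 CPM. It stood at 4.00, 2.89 and 4.11 CPM after bleomycin (adjusted p = 0.0115) and at 0.236, 0 and 2.04 CPM in the LNP group. From bleomycin to LNP Mmp24 was not called with all libraries and was called lower without LNP replicate 3 (adjusted p = 0.00857). Its opposite-strand neighbour Mmp24os1, at 41.5 to 58.3 CPM over all 9 libraries, was not called in any comparison.

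Mmp15 and Mmp28 were the MMPs that fell. Mmp15, a membrane-type MMP related to MMP14, stood at 194, 281 and 208 CPM in controls, 32.1, 34.7 and 39.8 CPM after bleomycin and 182, 169 and 50.9 CPM in the LNP group. LNP replicates 1 and 2 lay below the lowest control and far above the bleomycin libraries, whereas replicate 3 lay nearer to the bleomycin libraries. Its log2 fold change was -2.68 ± 0.41 after bleomycin (adjusted p = 0.00128) and 1.91 ± 0.40 from bleomycin to LNP (adjusted p = 0.0250), or 2.31 without LNP replicate 3 (adjusted p = 3.81e-05). The second call was lost when any 1 bleomycin library or LNP replicate 1 or 2 was left out. For LNP against control the value was -0.76 ± 0.38 (adjusted p = 0.263). In rank of mean FPKM Mmp15 went from 4th of the members in controls to 26th after bleomycin and 10th in the LNP group.

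Of 7 lung epithelium markers 4 fell after bleomycin. The Mmp15 level and their sum were both low in the bleomycin libraries and in LNP replicate 3, and the part of epithelial content in the Mmp15 result was not tested. Mmp28, or epilysin, an MMP of epithelia, stood at 51.9, 62.7 and 49.9 CPM in controls, 8.81, 12.4 and 17.7 CPM after bleomycin and 21.8, 19.7 and 16.5 CPM in the LNP group. All control libraries were above all others. It fell after bleomycin by 2.08 ± 0.24 (adjusted p = 0.000399) and was below controls in the LNP group by a log2 fold change of -1.50 ± 0.24 (adjusted p = 0.00562). From bleomycin to LNP the value was 0.58 ± 0.24 (adjusted p = 0.163). Thus of the pair of MMPs that fell after bleomycin, only Mmp15 was called higher in the LNP group than after bleomycin; the difference between the 2 genes was not tested.

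A group of 8 MMP genes stands in a row on chromosome 9, all on the plus strand: Mmp13, Mmp12, Mmp3, Mmp10, Mmp8, Mmp27, Mmp20 and Mmp7. In the deposited table they span positions 7272514 to 7699587, or 427 kb; the genome build of that table is not known from the sources read. The neighbours differed in level and in how they moved. Of 72 members, 44 had a RefSeq promoter entry of 300 bases (250 before the start and 50 after, build GRCm38.p6). An AP-1 element, searched as TGAGTCA or TGACTCA so that both strands were covered, was present in 7 of these 44 members (15.9%) and in 5.95% of all 27025 genes with such entries. Those members were Mmp13, Mmp12, Mmp3, Mmp10, Mmp7, Adam19 and Adam1b, so 5 of the 7 belong to the chromosome 9 row. A second element searched in the same entries, PEA3 (AGGAAG or CTTCCT), was present in 16 of the 44 members (36.4%) and in 38.4% of all genes. The 150 bases before the start of 5 genes of the row are printed below, 5′ to 3′ from RefSeq, because these genes lie side by side yet differ in their values; capitals mark the AP-1 element.
Mmp13 chr9:7272364-7272513, plus strand: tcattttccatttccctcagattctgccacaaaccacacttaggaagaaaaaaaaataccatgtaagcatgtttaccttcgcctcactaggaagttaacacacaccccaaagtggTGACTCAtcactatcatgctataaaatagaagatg
Mmp12 chr9:7347224-7347373, plus strand: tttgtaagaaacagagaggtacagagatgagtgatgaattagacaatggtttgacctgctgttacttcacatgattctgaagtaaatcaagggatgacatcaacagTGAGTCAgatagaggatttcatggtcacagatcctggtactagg
Mmp3 chr9:7445672-7445821, plus strand: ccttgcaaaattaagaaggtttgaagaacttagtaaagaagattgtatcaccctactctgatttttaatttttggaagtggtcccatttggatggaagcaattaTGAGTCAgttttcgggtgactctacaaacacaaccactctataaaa
Mmp10 chr9:7502192-7502341, plus strand: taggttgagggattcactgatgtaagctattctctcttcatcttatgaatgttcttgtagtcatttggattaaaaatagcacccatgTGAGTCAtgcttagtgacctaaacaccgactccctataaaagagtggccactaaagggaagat
Mmp8 chr9:7558279-7558428, plus strand: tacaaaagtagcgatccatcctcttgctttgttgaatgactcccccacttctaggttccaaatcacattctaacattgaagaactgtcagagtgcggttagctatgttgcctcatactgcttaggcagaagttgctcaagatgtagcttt
The element began 35 bases before the start in Mmp13, 44 in the second of the 2 Mmp12 entries, 46 in Mmp3 and 63 in Mmp10. These letters were in neither the first Mmp12 entry nor the Mmp8 window. A member was counted if any of its entries held the element. The element was present in 2 of 16 members that rose after bleomycin and had an entry, in 0 of 8 that fell and in 4 of 15 that were tested and not called. A match is a description of letters in a short window.

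Mmp13, a collagenase, stood at 1.03, 0.469 and 0.829 CPM in controls, 7.27, 4.87 and 3.70 CPM after bleomycin and 2.12, 3.32 and 2.33 CPM in the LNP group. The 3 groups did not overlap. It rose by 2.77 ± 0.39 after bleomycin (adjusted p = 0.000878) and was above controls in the LNP group by 1.74 ± 0.38 (adjusted p = 0.0216). The latter call was lost without control replicate 2, control replicate 3 or LNP replicate 2. Mmp10, a stromelysin that cuts proteoglycans and activates other MMPs, had no read in any control. It stood at 14.7, 10.04 and 5.80 CPM after bleomycin and at 0.833, 3.86 and 6.71 CPM in the LNP group. Against 3 counts over the control group, this was at least 669-fold higher after bleomycin (adjusted p = 0.000708) and at least 250-fold higher in the LNP group (adjusted p = 0.00448).

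Mmp3, another stromelysin and by FPKM the most abundant gene of the row in controls, was not called in any comparison with all libraries. It stood at 60.6, 62.9 and 48.5 CPM in controls, 107, 80.3 and 57.8 CPM after bleomycin and 69.7, 74.7 and 51.8 CPM in the LNP group, with overlap between all groups. The log2 fold change after bleomycin was 0.51 (95% interval 0.00 to 1.02, adjusted p = 0.111). So of Mmp3 and Mmp10, which are close relatives and neighbours with the same AP-1 letters, Mmp3 had a mean of 29.2 FPKM in controls and Mmp10 had no read there.

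Mmp8, the collagenase stored in neutrophil granules, stood at 6.04, 5.92 and 4.82 CPM in controls, 19.0, 42.1 and 62.6 CPM after bleomycin and 6.62, 9.31 and 11.4 CPM in the LNP group. Every bleomycin library was above every other library. It rose by 2.88 ± 0.39 after bleomycin (adjusted p = 0.000758) and fell by 2.18 ± 0.38 from bleomycin to LNP (adjusted p = 0.0153), a call that was lost without bleomycin replicate 2, LNP replicate 1 or LNP replicate 2. Mmp9, the gelatinase of neutrophils and other leukocytes, was chosen for description after its values were seen. It stood at 35.9, 41.8 and 22.2 CPM in controls, 18.9, 44.2 and 70.1 CPM after bleomycin and 14.4, 20.4 and 7.42 CPM in the LNP group.

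The bleomycin libraries of Mmp9 spanned the controls (log2 fold change 0.42 ± 0.47, adjusted p = 0.527), and its difference from bleomycin to LNP was not called (-1.66 ± 0.48, adjusted p = 0.0735). Within the bleomycin group Mmp8 and Mmp9 had the same order of libraries as the sum of 9 neutrophil markers, at 393, 674 and 892 CPM. That sum was 281, 364 and 218 CPM in controls, which was the order of Mmp9 and not of Mmp8. It was 457, 207 and 555 CPM in the LNP group, where neither gene had its order and Mmp9 had the reverse. Of the 9 markers 3 rose and 1 fell after bleomycin, 4 were lower and 0 higher in the LNP group than after bleomycin, and 2 were lower and 0 higher in the LNP group than in controls. The part of neutrophil content in these results was not tested.

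Mmp12, the elastase of macrophages, differed widely between the LNP libraries. It stood at 3.36, 2.75 and 4.06 CPM in controls, 9.86, 12.9 and 15.4 CPM after bleomycin and 78.5, 110 and 7.09 CPM in the LNP group. LNP replicates 1 and 2 were above every bleomycin library and LNP replicate 3 was below all of them. Mmp12 had a log2 fold change of 1.91 ± 0.72 after bleomycin (adjusted p = 0.0645), 2.36 ± 0.71 from bleomycin to LNP (adjusted p = 0.0806) and 4.27 ± 0.78 for LNP against control (adjusted p = 0.0102). Without LNP replicate 3 these values were 1.94 (adjusted p = 9.61e-05), 2.89 (adjusted p = 5.43e-05) and 4.84 (adjusted p = 1.69e-05), and all were called. The call for LNP against control was lost without control replicate 1.

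The sum of 11 macrophage markers did not follow Mmp12 within the LNP group. It was 414 to 479 CPM in controls, 6507 to 7247 CPM after bleomycin and 2464, 3828 and 5071 CPM in the LNP group, so the library with the least Mmp12 of the LNP group had the highest sum. Of these 11 markers 9 rose after bleomycin. Mmp27 and the untested Mmp20 and Mmp7 lay below 1 CPM in every library.

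**Figure D3:**
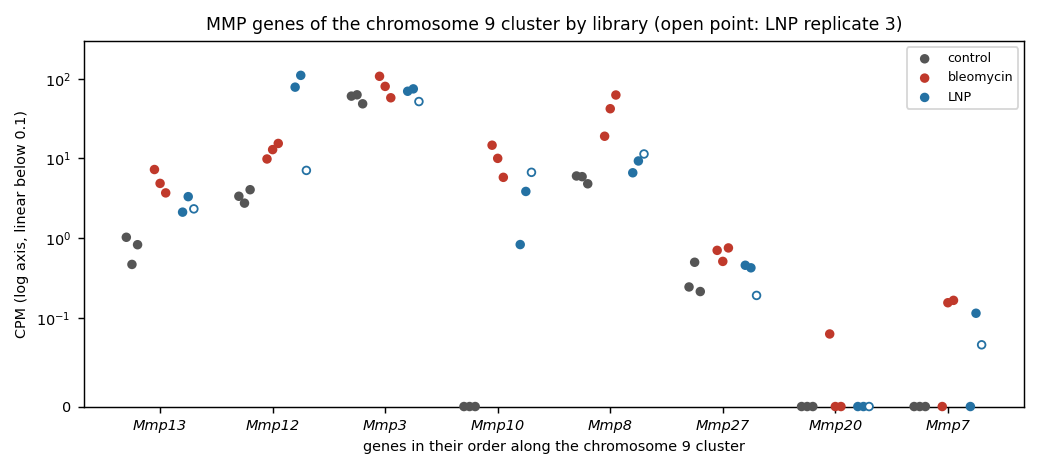
Levels of the 8 MMP genes of the chromosome 9 row in each library, in order along the chromosome and not to scale in distance; the vertical axis is CPM on a log scale that is linear below 0.1. Points are libraries in replicate order and the open point is LNP replicate 3. Mmp10 had no read in the controls, Mmp3 overlapped between all groups, and Mmp12 stood at 78.5 and 110 CPM in 2 LNP libraries and at 7.09 CPM in the third.

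Of the ADAMs, Adam12 changed most after bleomycin. Adam12, an ADAM of mesenchymal cells that sheds growth factor precursors, stood at 2.89, 2.41 and 1.99 CPM in controls, 42.9, 40.1 and 40.4 CPM after bleomycin and 7.33, 10.5 and 25.8 CPM in the LNP group. The 3 groups did not overlap. Adam12 had a log2 fold change of 4.08 ± 0.44 after bleomycin (adjusted p = 0.000280), 2.58 ± 0.41 for LNP against control (adjusted p = 0.00562) and -1.50 ± 0.39 from bleomycin to LNP, which was not called (adjusted p = 0.0517). Without LNP replicate 3, the highest of its group, the last value was -2.20 (adjusted p = 0.000125).

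Adam15 and Adam9, both widely expressed membrane ADAMs, were the most abundant of their family by FPKM. Adam15 stood at 190, 212 and 213 CPM in controls, 475, 432 and 399 CPM after bleomycin and 295, 306 and 370 CPM in the LNP group, again without overlap. It rose by 1.09 ± 0.14 after bleomycin (adjusted p = 0.000553) and was above controls in the LNP group by 0.66 ± 0.14 (adjusted p = 0.0173), a call lost without control replicate 1 or 3. Adam9 stood at 132, 84.6 and 104 CPM, at 279, 255 and 240 CPM and at 145, 166 and 160 CPM in the same order of groups. It rose by 1.27 ± 0.17 after bleomycin (adjusted p = 0.00066) and fell by 0.72 ± 0.16 from bleomycin to LNP (adjusted p = 0.0349). That fall held in 3 of 9 fits with 1 library left out, those without control replicate 1, control replicate 2 or LNP replicate 3.

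Adam8, an ADAM of leukocytes, stood at 30.0, 41.8 and 31.3 CPM in controls, 124, 101 and 84.3 CPM after bleomycin and 45.4, 58.9 and 118 CPM in the LNP group. Adam23, a member with no protease activity that binds integrins, stood at 5.89 to 7.51 CPM in controls, 22.9 to 24.1 CPM after bleomycin and 9.80, 11.5 and 29.6 CPM in the LNP group. Both rose after bleomycin (Adam8 by 1.59 ± 0.33, adjusted p = 0.00546; Adam23 by 1.80 ± 0.37, adjusted p = 0.00532), and in both LNP replicate 3 lay far above replicates 1 and 2. Neither was called from bleomycin to LNP with all libraries, while without LNP replicate 3 both were, at -0.98 for Adam8 (adjusted p = 0.00789) and -1.13 for Adam23 (adjusted p = 0.00112).

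Adam17 and Adam10 encode the sheddases with the widest range of targets. Adam17, which releases TNF and EGF receptor ligands, stood at 64.1, 46.6 and 51.2 CPM in controls, 51.0, 50.5 and 51.0 CPM after bleomycin and 68.0, 75.5 and 42.6 CPM in the LNP group and was not called in any comparison with all libraries (bleomycin against control -0.09 ± 0.21, adjusted p = 0.773). Without LNP replicate 3, the lowest of all 9 libraries, Adam17 was called higher in the LNP group than after bleomycin, by 0.50 (adjusted p = 0.0292). Adam10, the sheddase of Notch receptors and cadherins, stood at 86.4, 41.7 and 84.0 CPM in controls and 124, 117 and 107 CPM after bleomycin. Its rise of 0.71 ± 0.25 had an adjusted p of 0.0498 and was called in 1 of 9 fits with 1 library left out, the one without LNP replicate 3. Adam19, an ADAM with a part in heart and nerve development, stood at 48.5 to 53.4 CPM in controls and 53.3 to 67.7 CPM after bleomycin (0.25 ± 0.12, adjusted p = 0.140).

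After bleomycin 5 ADAMs fell. Adam28, an ADAM of lymphocytes and epithelia, stood at 19.2, 18.5 and 19.1 CPM in controls, 4.85, 4.41 and 2.89 CPM after bleomycin and 14.6, 12.3 and 7.49 CPM in the LNP group, with no overlap between groups. It fell by 2.23 ± 0.28 after bleomycin (adjusted p = 0.000523) and was higher in the LNP group than after bleomycin by 1.51 ± 0.27 (adjusted p = 0.0165). The second call was lost without bleomycin replicate 1 or 2 or LNP replicate 1 or 2. All 8 B and T cell markers fell after bleomycin. Their sum was 135 to 175 CPM in controls, 15.5 to 17.4 CPM after bleomycin and 149 to 163 CPM in the LNP group, and its part in the Adam28 values was not tested.

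Adam22, a non-proteolytic receptor known mainly from neurons, stood at 9.45, 6.12 and 11.5 CPM in controls and 2.80, 2.61 and 2.37 CPM after bleomycin and fell by 1.80 ± 0.28 (adjusted p = 0.0015). Adam33, an ADAM of mesenchymal cells of the airway wall, stood at 7.36 to 9.24 CPM in controls and 2.49 to 5.32 CPM after bleomycin and fell by 1.07 ± 0.33 (adjusted p = 0.0314). Adam1a and Adam3, which belong to the group of ADAMs known from sperm, fell from at most 3.35 and 2.41 CPM to at most 1.41 and 0.544 CPM (adjusted p = 0.0305 and 0.0307). The calls of Adam33, Adam1a and Adam3 each held in 4 or 5 of 9 fits with 1 library left out; each was lost without control replicate 1, control replicate 3 or bleomycin replicate 2.

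**Figure D4:**
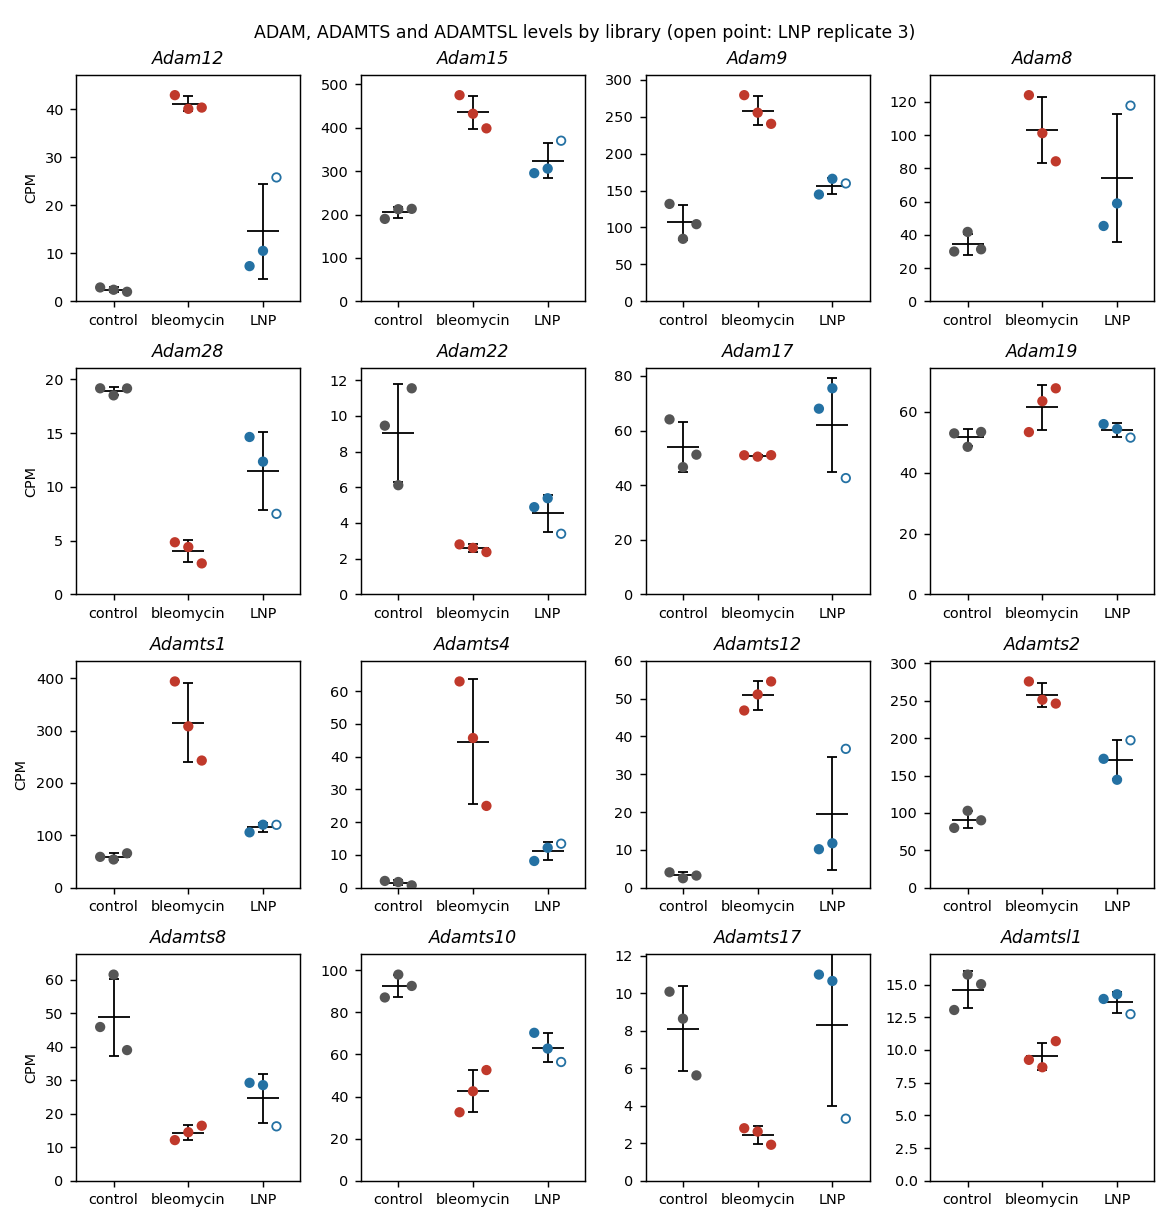
Levels of 16 ADAM, ADAMTS and ADAMTSL genes in each of the 9 libraries, in TMM-scaled CPM on linear axes from 0. Points are libraries in replicate order, bars and whiskers are the mean and SD of 3 libraries, and the open point is LNP replicate 3. Adam12, Adamts4 and Adamts12 were lowest in controls and highest after bleomycin, Adamts8 and Adamts10 were highest in controls, and Adam17 overlapped between all groups.

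In the ADAMTS family Adamts4 and Adamts1, which encode proteases of versican and other large proteoglycans, rose after bleomycin. Adamts4 stood at 2.04, 1.71 and 0.686 CPM in controls, 63.0, 45.7 and 25.0 CPM after bleomycin and 8.13, 12.2 and 13.4 CPM in the LNP group. Adamts1 stood at 58.8, 53.8 and 65.6 CPM, at 394, 308 and 243 CPM and at 106, 120 and 120 CPM. For both genes the LNP libraries lay between the controls and the bleomycin libraries without overlap. Adamts4 rose by 4.91 ± 0.48 after bleomycin (adjusted p = 0.000201) and fell by 1.99 ± 0.42 from bleomycin to LNP (adjusted p = 0.0263), a fall that was lost without bleomycin replicate 1 or 2 or LNP replicate 1 or 2.

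Adamts1 rose by 2.41 ± 0.18 after bleomycin (adjusted p = 8.04e-05) and fell by 1.45 ± 0.18 from bleomycin to LNP (adjusted p = 0.00389). It was the only one of the 10 members called between LNP and bleomycin that stayed called whichever single library was left out. Both genes were above controls in the LNP group (Adamts4 by 2.93 ± 0.44, adjusted p = 0.00473; Adamts1 by 0.96 ± 0.18, adjusted p = 0.0108); the Adamts1 call there was lost without control replicate 1. Adamts9 and Adamts5, which also cut proteoglycans, were not called with all libraries. Adamts9 stood at 30.3 to 36.1 CPM in controls and 83.7, 59.8 and 36.7 CPM after bleomycin (0.85 ± 0.32, adjusted p = 0.0644), and Adamts5 at 9.01 to 16.2 CPM and 15.1 to 16.3 CPM. Adamts5 was named after its values were seen.

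The deposited transcript table divided Adamts4 between 3 transcripts. In the controls all of its reads were assigned to ENSMUST00000111315, whereas after bleomycin 93.0% to 95.7% were assigned to ENSMUST00000219033. In the LNP group the share of the latter ran from 0% to 89.0%, so the split within that group was not uniform. These shares are estimates from short reads at 0.686 to 2.04 CPM of Adamts4 in controls, and no test was run on them. For Adam15 the share of ENSMUST00000184651 was 17.4% to 28.5% in controls, 40.4% to 49.7% after bleomycin and 15.1% to 43.7% in the LNP group.

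Adamts12, an enzyme that cuts cartilage oligomeric matrix protein, stood at 4.05, 2.48 and 3.19 CPM in controls, 46.9, 51.1 and 54.6 CPM after bleomycin and 10.2, 11.7 and 36.7 CPM in the LNP group. It rose by 3.97 ± 0.48 after bleomycin (adjusted p = 0.000469). From bleomycin to LNP the value was -1.38 ± 0.43 (adjusted p = 0.0871), or -2.21 without LNP replicate 3 (adjusted p = 0.000117). Its relative Adamts7 stood at 2.24 to 2.96 CPM in controls, 12.2 to 13.7 CPM after bleomycin and 6.52, 9.89 and 16.4 CPM in the LNP group and rose by 2.32 ± 0.31 (adjusted p = 0.000724). As with Adam12, LNP replicate 3 was the library of its group nearest to, or above, the bleomycin libraries.

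The procollagen N-proteinases Adamts2 and Adamts14, which trim fibrillar procollagens before fibrils form, both rose. Adamts2 stood at 79.9, 103 and 90.1 CPM in controls, 276, 251 and 246 CPM after bleomycin and 172, 144 and 197 CPM in the LNP group. It rose by 1.50 ± 0.15 (adjusted p = 0.000231) and fell by 0.59 ± 0.15 from bleomycin to LNP (adjusted p = 0.0488); the fall held only in the fits without control replicate 2 or without LNP replicate 3. Adamts14 stood at 3.83 to 4.60 CPM in controls, 10.04 to 13.1 CPM after bleomycin and 4.18, 5.12 and 13.3 CPM in the LNP group. Its rise of 1.40 ± 0.39 (adjusted p = 0.0209) held in 4 of 9 fits with 1 library left out and was lost without any 1 control, bleomycin replicate 1 or bleomycin replicate 3. From bleomycin to LNP Adamts14 was not called with all libraries (-0.59, adjusted p = 0.371). Without LNP replicate 3 it was called lower there (-1.28, adjusted p = 0.00198). The third N-proteinase, Adamts3, lay at 0.672 to 1.92 CPM in the control and bleomycin libraries and was not called with all libraries.

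Among ADAMTS genes, 4 fell after bleomycin. Adamts8, an anti-angiogenic member abundant in lung, stood at 45.9, 61.6 and 39.0 CPM in controls, 12.1, 14.5 and 16.4 CPM after bleomycin and 29.2, 28.6 and 16.3 CPM in the LNP group. It fell by 1.77 ± 0.26 (adjusted p = 0.00104). From bleomycin to LNP Adamts8 was called higher only without LNP replicate 3 (1.01, adjusted p = 0.00533) and not with all libraries. Its log2 fold change for LNP against control, -0.98 ± 0.25 (adjusted p = 0.0414), was called in 1 of 9 fits with 1 library left out, the one without LNP replicate 1. Adamts10, which binds fibrillin microfibrils, stood at 87.1, 97.9 and 92.5 CPM in controls, 32.5, 42.5 and 52.6 CPM after bleomycin and 70.3, 62.8 and 56.4 CPM in the LNP group. The 3 groups did not overlap, and it fell by 1.12 ± 0.18 after bleomycin (adjusted p = 0.00148). From bleomycin to LNP Adamts10 was not called with all libraries (0.57, adjusted p = 0.0822). Without LNP replicate 3 it was called higher there (0.65, adjusted p = 0.0266).

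Adamts17, a relative of Adamts10, stood at 10.1, 8.64 and 5.62 CPM in controls, 2.80, 2.62 and 1.92 CPM after bleomycin and 10.99, 10.7 and 3.31 CPM in the LNP group. It fell by 1.73 ± 0.43 after bleomycin (adjusted p = 0.0131) and was higher in the LNP group than after bleomycin by 1.77 ± 0.43 (adjusted p = 0.0431), a call that held in 1 of 9 fits, the one without LNP replicate 3. Adamts20, the fourth, lay below 1.2 CPM in every library. Of the ADAMTSL genes, which lack the protease domain and bind microfibrils, Adamtsl1, Adamtsl4 and Adamtsl5 fell by 0.62 ± 0.15, 0.47 ± 0.14 and 0.45 ± 0.15 on the log2 scale (adjusted p = 0.0132, 0.0318 and 0.0485). The Adamtsl1 call was lost without bleomycin replicate 2. Adamtsl4 and Adamtsl5 kept their calls in 4 and 2 of 9 fits with 1 library left out; both were lost without control replicate 2 or any 1 bleomycin library. The summed ADAMTSL level was 44.9 ± 3.71 FPKM in controls, 30.6 ± 1.97 after bleomycin and 37.1 ± 1.95 in the LNP group (SD, n = 3).

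In all, 28 tested members were called in no comparison with all libraries. Those with a high FPKM included Mmp11, a stromelysin, which stood at 38.8, 47.4 and 30.3 CPM in controls, 26.1, 33.5 and 43.0 CPM after bleomycin and 46.2, 48.6 and 39.1 CPM in the LNP group. Adamts15, a protease of aggrecan and versican, stood at 92.3, 99.0 and 67.7 CPM, at 45.0, 82.8 and 112 CPM and at 64.8, 76.6 and 112 CPM. Adamtsl2, a microfibril-bound protein, stood at 116, 109 and 90.0 CPM, at 58.9, 73.3 and 83.1 CPM and at 121, 119 and 60.5 CPM. The control and bleomycin libraries overlapped for Mmp11 and Adamts15 and did not for Adamtsl2, which was lower in every bleomycin library (log2 fold change -0.55 ± 0.25, adjusted p = 0.117). Adamtsl3 stood at 11.3 to 14.4 CPM in controls and 7.81 to 9.76 CPM after bleomycin (-0.48 ± 0.18, adjusted p = 0.0630). The other uncalled members not described above (Mmp16, Mmp17, Mmp25, Adam1b, Adam4, Adam5, Adam7, Adam11, Adam32, Adamts6, Adamts13, Adamts16 and Adamts19) stood at 0 to 11.3 CPM in any library.

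For LNP against bleomycin, 3 of the 65 tested members were called higher (Mmp15, Adam28 and Adamts17), beside 4.28% of all genes, and 7 were called lower (Adamts1, Adamts2, Adamts4, Timp1, Adam9, Mmp8 and Timp3), beside 1.87% of all genes (6.16% in either direction). All 7 of the latter had risen after bleomycin and all 3 of the former had fallen. These comparisons share the bleomycin libraries, so the opposite signs carry no independent weight. The median log2 fold change of the members was -0.02, and of all genes 0.04. The mean of the LNP group lay between the control and bleomycin means for 21 of 22 members that had risen and 11 of 14 that had fallen, beside 86.3% and 87.8% of all genes called higher and lower after bleomycin. Without any 1 of bleomycin replicates 1 and 2 and LNP replicates 1 and 2, the calls were 0 higher and 1 or 2 lower. In these fits calls were also few over all genes, at 84 to 306 higher and 18 to 53 lower of 21495 to 21536 tested.

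Without LNP replicate 3 there were 11 members higher and 20 lower, beside 14% and 10.7% of all genes in that fit, and they included all 10 of the calls made with it. The 8 further members called higher were Mmp12, Adamts8, Adamtsl2, Adam22, Adamts10, Adamtsl1, Adam17 and Adamts20. The 13 further members called lower were Adamts12, Adam12, Adam23, Adamts14, Mmp14, Adam8, Mmp24, Adam15, Adamts5, Adamts3, Adamts9, Mmp10 and Adamts7. With all libraries, LNP replicate 3 was the highest LNP library for 17 of the 22 members that rose after bleomycin and the lowest for 8 of the 14 that fell. The part of the muscle and squamous tissue markers of that library in these members' values was not tested.

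**Figure D5:**
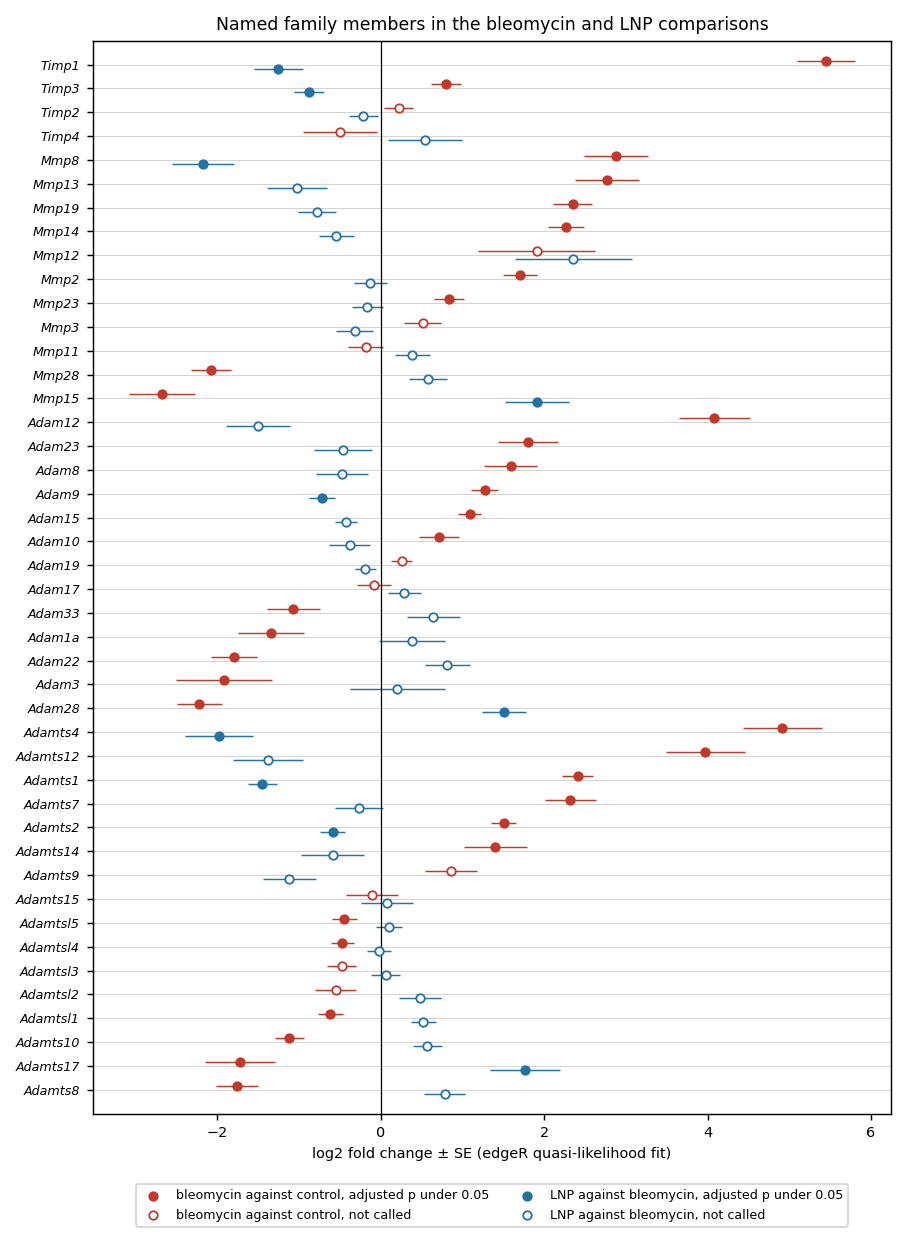
Log2 fold changes with SE from edgeR's quasi-likelihood fit for 44 named members, grouped by family and ordered by the bleomycin value; red is bleomycin against control and blue is LNP against bleomycin, and filled points have an adjusted p under 0.05. Mmp10 and Mmp24 are left out because their control values were at or near 0. Timp1, Adamts4, Adam12 and Adamts12 lie farthest to the right in red, and Mmp12 is a gene whose red and blue points both lie well to the right without being called.

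For LNP against control, 14 members were called higher, beside 4.95% of all genes, and 2 lower, beside 3.08% of all genes (8.04% in either direction). Of the 14, 13 had also risen after bleomycin (Timp1, Mmp2, Mmp10, Mmp13, Mmp14, Mmp19, Adam12, Adam15, Adamts1, Adamts2, Adamts4, Adamts7 and Adamts12), and Mmp12 was the other. The lower members were Mmp28 and Adamts8. Both comparisons use the same controls. The median log2 fold change of the members was 0.19, and of all genes 0.00. Without LNP replicate 3 the counts were 16 higher and 4 lower, beside 6.41% and 4.51% of all genes in that fit. The 2 further members higher were Mmp25 and Adam23; the lower members were Mmp28, Adamtsl4, Adam3 and Timp4, and Adamts8 was no longer among them.

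Genes outside the families that act on the same enzymes were taken from lists. With all libraries, their counts stand beside the shares of all genes given above. These were 15.2% higher and 18.5% lower after bleomycin and 4.28% higher and 1.87% lower from bleomycin to LNP. The latter shares were 14% higher and 10.7% lower without LNP replicate 3. Without bleomycin replicate 1 or 2 or LNP replicate 1 or 2, 84 to 306 of all genes were higher and 18 to 53 lower. Without control replicate 1 or 3 or bleomycin replicate 3, the counts were 517 to 545 higher and 157 to 270 lower. These fits tested 21440 to 21542 genes. Of 17 tested activators, inhibitors and docking partners of MMPs, 13 rose and 1 fell after bleomycin, and 6 were lower and 0 higher in the LNP group than after bleomycin. The LNP counts were 11 lower and 1 higher without LNP replicate 3, and 0 in either direction without bleomycin replicate 1 or 2 or LNP replicate 1 or 2. Thbs1, which binds several MMPs and activates TGF-beta, stood at 131, 114 and 119 CPM in controls, 3238, 2063 and 1078 CPM after bleomycin and 347, 491 and 682 CPM in the LNP group (4.13 ± 0.40, adjusted p = 0.000201, and -2.07 ± 0.37, adjusted p = 0.0162). Serpine2, an inhibitor of serine proteases, rose by 2.06 ± 0.18 after bleomycin (adjusted p = 0.000132).

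The single gene of that list that fell was Reck, a membrane-anchored inhibitor of MMP2, MMP9 and MMP14. It stood at 83.1, 90.7 and 71.9 CPM in controls, 17.5, 21.2 and 23.1 CPM after bleomycin and 32.3, 29.4 and 18.6 CPM in the LNP group, with all controls above all other libraries. Reck had a log2 fold change of -1.99 ± 0.21 after bleomycin (adjusted p = 0.000288) and -1.61 ± 0.21 for LNP against control (adjusted p = 0.00278). So Timp1 and Reck, both inhibitors of MMPs, moved in opposite directions after bleomycin, and Reck was not called from bleomycin to LNP with all libraries (0.38 ± 0.21, adjusted p = 0.295). Of the 9 fits with 1 library left out, the one without LNP replicate 3 called Reck higher in the LNP group than after bleomycin.

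Of 8 tested partners of ADAM10 and ADAM17, 2 rose and 2 fell after bleomycin, beside 15.2% and 18.5% of all genes. These tetraspanins and regulators steer the sheddases to their substrates. Tspan33 fell by 1.15 ± 0.24 (adjusted p = 0.00556) and Tspan14 by 0.82 ± 0.19 (adjusted p = 0.0103), while Tspan5 rose by 0.61 ± 0.14 (adjusted p = 0.00767). Tspan33 was higher in the LNP group than after bleomycin by 0.97 ± 0.24 (adjusted p = 0.0441), the 1 call of this list between these groups. It was lost without control replicate 1 or 3, any 1 bleomycin library or LNP replicate 1 or 2. Without LNP replicate 3 the counts were 2 higher and 2 lower, beside 14% and 10.7% of all genes in that fit. Of 30 membrane proteins that are known to be shed, 10 rose and 9 fell after bleomycin, beside 15.2% and 18.5% of all genes. Trem2, a macrophage receptor, stood at 2.92 to 5.22 CPM in controls and 102 to 108 CPM after bleomycin and rose by 4.67 ± 0.33 (adjusted p = 6.2e-05). With all libraries, Fcer2a, the low-affinity IgE receptor of B cells, was the 1 gene of the list higher in the LNP group than after bleomycin (2.76 ± 0.42, adjusted p = 0.0102), and Nrg1, Notch2 and Hbegf were lower. These counts were 4 higher and 7 lower without LNP replicate 3, beside 14% and 10.7% of all genes in that fit. Of the list, 1 was lower without control replicate 1 or 3 and 0 without bleomycin replicate 1 or 2 or LNP replicate 1 or 2. The Fcer2a call was lost without bleomycin replicate 2.

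Of 15 ADAMTS substrates, 9 rose and 1 fell after bleomycin, beside 15.2% and 18.5% of all genes. In the LNP group 1 was higher and 3 were lower than after bleomycin, beside 4.28% and 1.87% of all genes. The LNP counts were 1 higher and 8 lower without LNP replicate 3, beside 14% and 10.7% of all genes in that fit. They were 0 higher and 1 lower without control replicate 1 or bleomycin replicate 3. Without control replicate 3, bleomycin replicate 1 or 2 or LNP replicate 1 or 2 they were 0 in either direction. Vcan, the proteoglycan versican, stood at 9.27, 5.40 and 7.82 CPM in controls, 55.5, 42.3 and 35.4 CPM after bleomycin and 18.1, 24.6 and 22.6 CPM in the LNP group. It rose by 2.57 ± 0.25 after bleomycin (adjusted p = 0.000186) and fell by 1.03 ± 0.23 from bleomycin to LNP (adjusted p = 0.0344). Col3a1, a fibrillar procollagen trimmed by ADAMTS2, rose by 1.78 ± 0.14 (adjusted p = 8.04e-05) and fell by 0.58 ± 0.13 (adjusted p = 0.0350) in the same comparisons. Col1a1, the main chain of type I collagen, rose by 2.45 ± 0.21 after bleomycin (adjusted p = 0.000122). Of 14 other matrix proteases, 4 rose and 4 fell after bleomycin, beside 15.2% and 18.5% of all genes. Ctsk, a collagen-cutting cathepsin, rose by 2.75 ± 0.21 (adjusted p = 8.04e-05) and fell by 0.79 ± 0.20 from bleomycin to LNP (adjusted p = 0.0472). Ctsk was the 1 gene of that list called between these groups. The call was lost without control replicate 1 or 3, bleomycin replicate 1 or 2 or LNP replicate 1 or 2. Without LNP replicate 3 the counts were 3 higher and 4 lower, beside 14% and 10.7% of all genes in that fit. Ctss, a cathepsin of antigen-presenting cells, stood at 97.8 to 105 CPM in controls, 643 to 724 CPM after bleomycin and 683 to 878 CPM in the LNP group, where the bleomycin and LNP libraries overlapped.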

How the data were processed

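Poly(A) RNA of 9 whole-lung samples, 3 per group, was sequenced as paired reads, per the labels' protocols. The authors deposited gene and transcript tables that hold, for each library, read counts (not normalized) and FPKM values; per the submitters' processing notes fastp, StringTie and edgeR were used. The aligner, the annotation, the genome build and the strand setting of counting were not given in the sources used here. FPKM is divided by the authors by gene length and depth, so it was used for levels between genes. Counts were used for all tests. A count estimated from assembled transcripts can divide reads between overlapping genes, and 26 members overlap another gene row, 5 of them on the same strand.

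Counts were filtered with filterByExpr (20794 genes kept, 11877 left out), scaled by TMM and fitted over all 9 libraries with edgeR 4.0.16 in R 4.3.3 (glmQLFit, glmQLFTest). P-values were adjusted over all genes tested by the Benjamini-Hochberg method and called at 0.05. SEs were taken as the absolute log2 fold change divided by the square root of F. CPM are TMM-scaled. Other settings tried were DESeq2 1.42.0, RLE scaling, no count filter, the 2 groups compared alone, a replicate block, a minimum of 2-fold, limma 3.58.1 on log2(FPKM + 1) and log2(FPKM + 0.1), and leaving out each library. Replicates of a group differed well beyond counting noise (chi-square per degree of freedom at least 30.2), so none was counted once. The main fit was run on simulated counts with known changes for bleomycin against control alone, with the same spread for all genes. The simulated counts held no outlying library like LNP replicate 3, so they cannot speak to the LNP comparisons. Depth ran from 56047830 to 69404903 counts per library, and fold bounds against a group without reads used 3 counts over the group.

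The members and lists were chosen with earlier results of these data known. Named genes were every TIMP, the members called in at least 1 comparison that reached a group mean of 1 CPM or more (at most 12 MMPs, 12 ADAMs and 14 ADAMTS or ADAMTSL genes), up to 2 uncalled members per family with the highest FPKM and, per list, the called genes with the smallest p. Promoters were taken from RefSeq (GRCm38.p6). Protein sequences were not used here.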

Additional observations from a re-analysis of the deposited data

How the results depend on the processing

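With 1 library left out, 20 to 28 members were higher after bleomycin and 8 to 16 lower. Over all genes these counts were 1951 to 4374 and 2412 to 4728. For LNP against control 12 to 16 members were higher and 1 to 4 lower, and over all genes 491 to 1369 and 226 to 963. For LNP against bleomycin 0 to 11 members were higher and 1 to 20 lower, and over all genes 84 to 2987 and 18 to 2297. These fits tested 21373 to 21542 genes. Of 35 named calls after bleomycin, 27 held in all 9 of these fits; of 16 for LNP against control, 11 held; and of 10 for LNP against bleomycin, 1 held. For LNP against bleomycin, DESeq2 called 9 members higher and 14 lower, beside 2026 and 1158 of 20624 genes. A fit of the 2 groups alone called 0 and 2, beside 218 and 100 of 19875 genes. Without a count filter 4 members were lower, beside 197 of 32671 genes. With a minimum of 2-fold 4 were lower, beside 166 of 20794 genes. For LNP against control, members called lower numbered 6 with DESeq2, beside 1236 of 20624 genes. They numbered 1 in each of the fit without a count filter, the fit of the 2 groups alone, limma on log2(FPKM + 0.1) and the minimum of 2-fold. Over all genes these settings called 451 of 32671, 331 of 19900, 618 of 20794 and 299 of 20794 lower. For the 3 members called higher in LNP than in bleomycin, all 3 were shared with DESeq2 and none with the fit of the 2 groups alone.

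Same-numbered libraries of 2 groups had correlations of their deviations from the group means from -0.02 to 0.04. Libraries with different numbers had correlations from -0.07 to 0.08. With so few libraries per group, these values cannot settle whether the replicate numbers paired the libraries. With the replicate block, 2 members were lower in LNP than in bleomycin and 1 was lower in LNP than in control. Over all genes these counts were 86 and 401 of 20794. The Timp4 log2 fold change for LNP against control turned from 0.04 to -0.17 with the block, -0.02 and -0.14 with limma on log2(FPKM + 1) and log2(FPKM + 0.1), and -0.81 without LNP replicate 3; with 1 library left out the Timp4 value ran from -0.81 to 0.34. That of Mmp9 after bleomycin ran from -0.080 (without bleomycin replicate 3) to 0.78 (without bleomycin replicate 1). With 1 library left out, the Adam17 value after bleomycin ran from -0.18 (without control replicate 2) to 0.052 (without control replicate 1), and the Timp3 value for LNP against control from -0.23 (without LNP replicate 3) to 0.020 (without LNP replicate 1). Of 1478 log2 fold changes recomputed under these settings, 1281 kept their side of the threshold, 157 lost a call, 32 gained one and 8 turned in sign. The log2 ratio of the summed TIMP level after bleomycin to that in controls was 1.17 over FPKM and 0.68 over CPM; the cause was not tested. Depth limits what can be said of the 7 members left out by the count filter.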
